A study of Mus musculus with 6 samples.

Results

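Interferon-stimulated genes were examined in primary neonatal chondrocytes, which form cartilage, of mice without the adenosine receptor gene Adora2a (A2ARKO) and of wild-type mice (WT). The set holds 44 genes chosen by symbol from the deposited table of 47480 rows, and all 44 were found. The symbols were chosen with earlier results of these data known, so the shares below describe the set and are not independent support. It covers antiviral effectors, nucleic acid sensors, STAT and IRF transcription factors and interferon-inducible GTPases. The A2ARKO mice are on a C57BL/6 background, the WT mice are C57BL/6, and both were raised in 1 facility according to the labels. The labels name no treatment. RNA came from trypsinized chondrocytes of 1 entire litter per library, 3 litters in each genotype, so p-values measure the spread between litter pools. Values are FPKM (fragments per kilobase of gene and per M fragments, M for mega) from the authors' deposited table.

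Interferons are secreted proteins that cells make after sensing foreign or misplaced nucleic acid. Type I interferons bind the receptor of Ifnar1 and Ifnar2, and the JAK kinases attached to it phosphorylate STAT proteins. A complex that holds STAT2 and IRF9 then binds the interferon-stimulated response element (ISRE) in the promoters of antiviral genes, while many genes that respond to interferon gamma carry the gamma-activated sequence (GAS). Chondrocytes are not immune cells, but like most cells they carry the receptors and a basal level of these genes.

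Most of the set stood higher in A2ARKO than in WT chondrocytes, although few single genes passed the test across the transcriptome. Of the 44 genes, 41 reached an FPKM of 1 in 3 or more libraries and were tested. Oasl1 did so through the A2ARKO libraries alone, so its place in the counts below is not independent of its difference. Irf7 and Ifih1 rose (limma adjusted p below 0.05), 0 fell and 39 did not pass, so 4.88% of the tested members were called higher. Of all 11595 tested genes, 5.08% were called, 3.31% higher and 1.77% lower, so the share of members called was near that background. By limma, 34 tested members had an unadjusted p below 0.05, all of them with a higher A2ARKO mean (82.9% of the members), against 14.3% of all tested genes. In 32 members every A2ARKO library lay above every WT library (78.0%), which held for 18.0% of all tested genes. In 0 members did every A2ARKO library lie below, against 14.9% of all tested genes. The fold change was above 0 in 40 of the 41, all but Ifi27, against 50.4% of all tested genes. With libraries rescaled to equal sums, which moved the median of all tested genes to -0.10, it was above 0 in 39, and Ifit2 was also below 0. The median log2 fold change (A2ARKO minus WT on log2(FPKM + 1)) was 1.15 over the tested members and 0.002 over all tested genes. It was 1 or more in 28 members (68.3%) and in 3.68% of all tested genes. The 3 members that were not tested, Oas3, Rsad2 and Mx1, had overlapping groups.

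**Figure D1:**
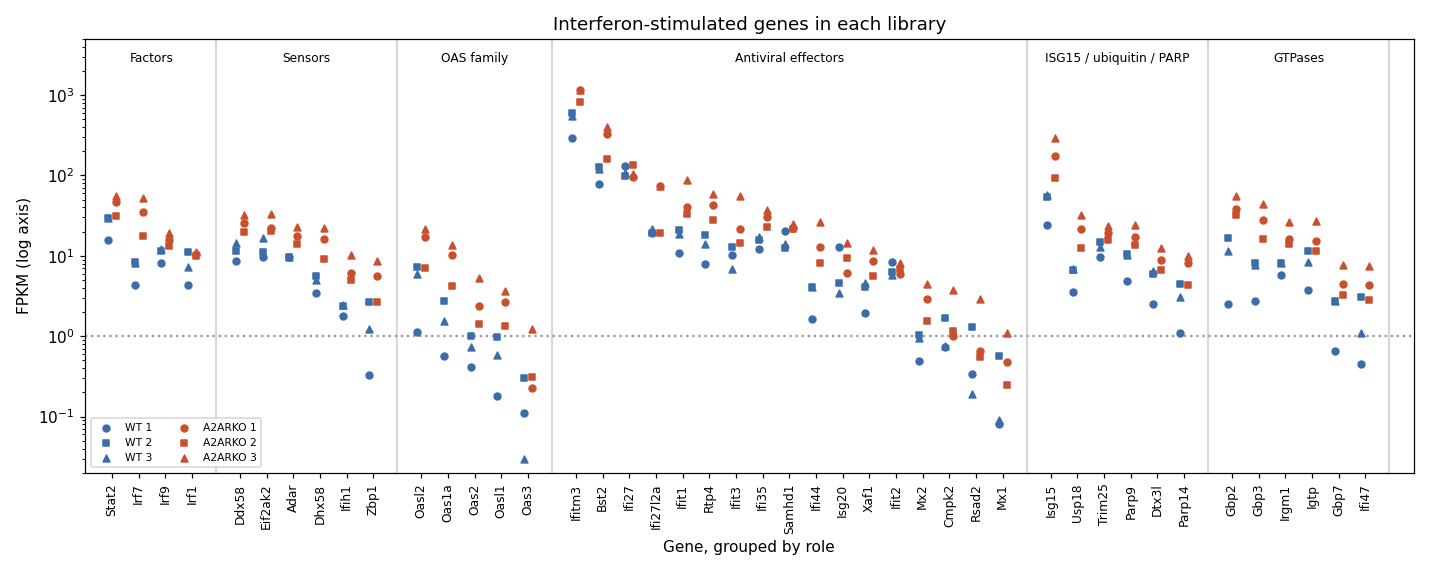
FPKM of the 44 genes in each library on a log axis, grouped by role and ordered by A2ARKO mean; blue symbols are the 3 WT and red symbols the 3 A2ARKO libraries, and the dotted line marks an FPKM of 1. Ifitm3 is the most abundant gene of the set in both genotypes, and WT replicate 1 is the lowest WT library in 36 of the 44.

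The libraries also differed in markers of cell type, in part with the genotype and in part within it. The summed FPKM of 11 chondrocyte markers was 24175, 1312 and 482 in WT replicates 1, 2 and 3 and 2170, 4354 and 6012 in A2ARKO replicates 1, 2 and 3, so WT replicate 1 stood far above and WT replicate 3 below all others. Col2a1, the gene of the main cartilage collagen, ranged from 184.6 to 18662 FPKM, and Matn1 was as low as 0.57 FPKM in WT replicate 3. The summed FPKM of 13 macrophage and myeloid markers was 184.8, 1953 and 133.7 in WT and 53.2, 30.3 and 26.5 in A2ARKO, with WT replicate 2 the highest and every WT library above every A2ARKO library. Of the 10 tested myeloid markers 0 passed by limma. An unadjusted limma p below 0.05 was found for 7 of them, and for 2863 of all 11595 tested genes. In 8 of the 10 every A2ARKO library lay below every WT library, against 14.9% of all tested genes. Ptprc, a marker of all white blood cells, was at most 0.04 FPKM in A2ARKO. Of 5 fibroblast markers 4 were tested and 1 fell: Dpt was 43.5, 56.7 and 24.97 FPKM (WT) and 12.3, 5.16 and 7.11 FPKM (A2ARKO) (log2 fold change -2.22, limma adjusted p = 0.0354). Pi16, at most 0.66 FPKM and not tested, was also lower in every A2ARKO library, while Col14a1, Pdgfra and Thy1 overlapped. The part of these marker differences in the results below was not tested. In bulk RNA, fewer cells of a type and less RNA per cell cannot be told apart. Of 8 lymphocyte and plasmacytoid dendritic cell markers, Cd3e, Cd8a, Siglech and Ccr9 were listed at 0 in all 6 libraries and the sum was at most 0.19 FPKM. Adora2a was 9.36, 7.31 and 3.46 FPKM (WT) and 0.41, 0.54 and 0.66 FPKM (A2ARKO), in the direction of the labels (log2 fold change -2.245, limma adjusted p = 0.0203). Estimated depth was 41.6 to 58.1 M reads, and 35 of the 44 genes had about 100 or more reads in every library. These reads per gene are approximate and may be too high, as described with the processing.

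**Figure D2:**
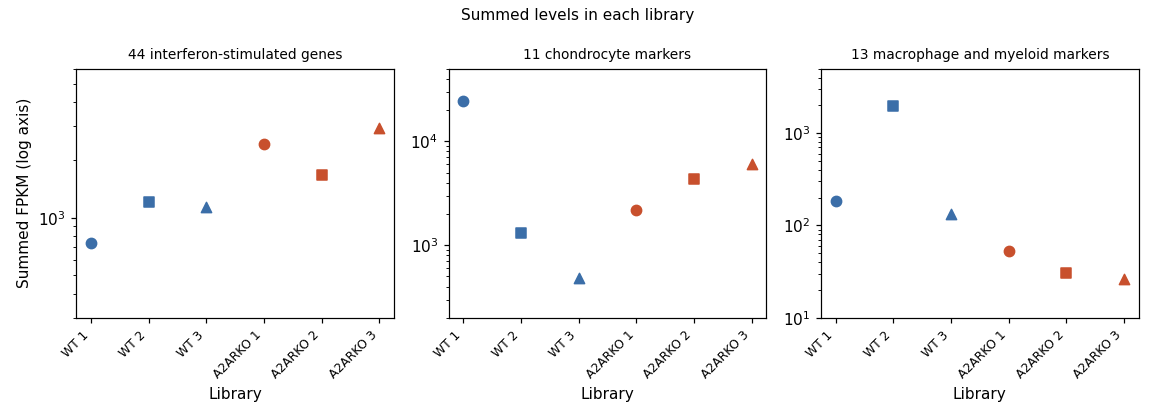
Summed FPKM (log axes with a separate range in each panel) of the 44 interferon-stimulated genes, of 11 chondrocyte markers and of 13 macrophage and myeloid markers in each library. The interferon-stimulated sum runs from 740.1 to 1212 in WT and from 1670 to 2937 in A2ARKO, the chondrocyte sum does not separate the genotypes, and the myeloid sum is higher in every WT library (133.7 or more) than in any A2ARKO library (53.2 or less), with WT replicate 2 the highest.

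Summed over the 44 genes, FPKM came to 740.1, 1212 and 1132 in WT and 2431, 1670 and 2937 in A2ARKO. As a share of all FPKM this was 0.253%, 0.478% and 0.49% for WT, and 0.904%, 0.615% and 0.977% for A2ARKO. Ifitm3 made up 39.2% to 49.6% of the sum, and without it the 43 others gave 447.2, 610.2 and 590.5 in WT and 1285, 849.3 and 1786 in A2ARKO. The groups did not overlap with or without Ifitm3.

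The genes also moved together between libraries of 1 genotype. WT replicate 1 was the lowest WT library in 36 of the 44 genes, A2ARKO replicate 2 the lowest A2ARKO library in 39 and A2ARKO replicate 3 the highest A2ARKO library in 42. Among the 41 tested members these shares were 85.4%, 90.2% and 95.1%, against 37.7%, 23.4% and 34.0% of all tested genes. Relative to each gene's mean over the 6 libraries, the median member lay at -1.08 log2 units in WT replicate 1 and at -0.33 and -0.42 in WT replicates 2 and 3. In A2ARKO replicates 1, 2 and 3 it lay at 0.52, 0.10 and 1.10. The median SD between libraries on the log2 scale was 0.457 in WT and 0.528 in A2ARKO for the tested members, against 0.192 and 0.0966 for all tested genes. The difference between genotypes was thus measured against a spread between litter pools that was wider for these genes than for most.

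**Figure D3:**
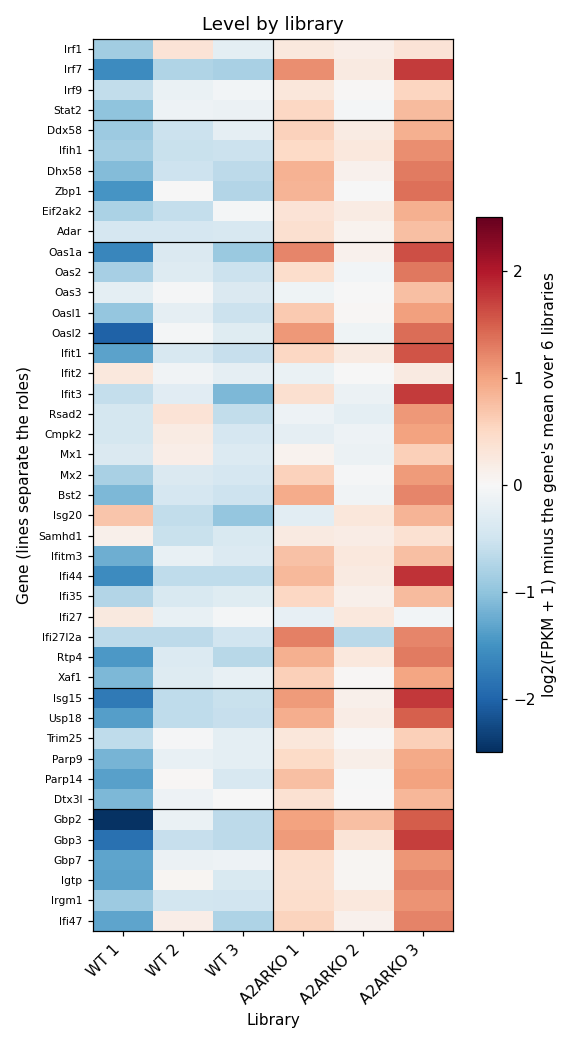
log2(FPKM + 1) of each of the 44 genes in each library, minus the mean of that gene over the 6 libraries; red is above and blue below that mean, and horizontal lines separate the roles. WT replicate 1 is the deepest blue column for most genes and A2ARKO replicate 3 the reddest, and A2ARKO replicate 2 lies closest to the mean.

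The promoters are shown as a description, because the ISRE is the element through which type I interferon reaches such genes. The members were chosen as known interferon-stimulated genes. A high share of ISRE matches therefore follows from that choice and says nothing about why the genes moved together in these libraries. RefSeq promoter windows on GRCm38.p6, from 250 bases before to 50 bases after each annotated start, were matched for 33 of the 44 genes. The ISRE core, searched on either strand as GAAA, any 2 bases (NN) and GAAA, was present in 17 of the 33 genes (51.5%), against 3.99% of the 27025 genes in that table and 3.69% of the tested genes it holds. In 13 of the 17 a match lay wholly before the start, and 8 of the 17 held more than 1 match. The longer form, which has a C after the second GAAA, was present in 14 of the 33 (42.4%), against 0.944% of all genes in the table. The GAS motif TTCNNNGAA, which reads the same on both strands, was present in 12 of the 33 (36.4%) against 9.55% of all genes, and 6 genes held both motifs. An ISRE match overlapped a GAS match in 2 of the 17, Bst2 and Ifitm3. A match describes the letters in this window and is not a site.

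The stretches below are the 60 bases around the ISRE matches in the promoters of Irgm1, Gbp3, Oas1a and Isg15, 4 of the 6 members with the smallest adjusted p among those with a match. The other two, Ifih1 and Ddx58, hold their match at or after the annotated start and are not printed, nor are Adar and Ifi35, whose GAS match lies there too. Ifit1 and Ifit3 were added after their values were seen, because their neighbour Ifit2 differs from them. Each is written 5′ to 3′ on the strand of the gene, with the matched letters in capitals, and ends before the RefSeq start. By the GENCODE gene spans, the Irgm1 stretch lies inside the gene and the Gbp3 stretch reaches past the start.
Isg15 (chr4:156200856-156200915, minus strand): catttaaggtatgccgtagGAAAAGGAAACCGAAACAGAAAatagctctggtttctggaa
Oas1a (chr5:120907526-120907585, minus strand): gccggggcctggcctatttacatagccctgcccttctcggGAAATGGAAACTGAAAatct
Irgm1 (chr11:48871421-48871480, minus strand): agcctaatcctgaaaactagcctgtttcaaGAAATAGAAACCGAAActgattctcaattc
Gbp3 (chr3:142559977-142560036, plus strand): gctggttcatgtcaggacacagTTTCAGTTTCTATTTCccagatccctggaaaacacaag
Ifit1 (chr19:34640769-34640828, plus strand): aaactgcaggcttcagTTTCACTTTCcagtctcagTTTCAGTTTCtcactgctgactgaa
Ifit3 (chr19:34583365-34583424, plus strand): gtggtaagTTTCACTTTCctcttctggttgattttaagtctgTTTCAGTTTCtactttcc
In Isg15, Oas1a and Irgm1 the motif reads on the strand of the gene and its copies overlap, with 3, 2 and 2 matches. In Gbp3, Ifit1 and Ifit3 it reads on the opposite strand, as TTTC, 2 bases and TTTC.

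Of the 31 tested genes with a promoter window, the 15 with an ISRE match had a median log2 fold change of 1.29, from 0.84 to 2.18, and in all 15 the A2ARKO libraries lay above the WT libraries. The 16 without a match had a median of 0.83, from 0.03 to 2.09, and 10 of them lay above. Of all tested genes, 18.0% lay above. Of the 2 members that rose, Ifih1 holds an ISRE match and Irf7 holds neither motif in its window. Gbp2, which had the highest log2 fold change of the set without passing, holds an ISRE match. The difference between these 2 groups of genes was not tested.

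Among the transcription factors, Irf7 rose and the other three did not pass. IRF7 is the factor that amplifies type I interferon production and is itself interferon-induced. Irf7 (mm10 chromosome 7, 141262706 to 141266481, minus strand) was 4.40, 8.50 and 8.17 FPKM (WT) and 34.7, 17.8 and 53.0 FPKM (A2ARKO). Every A2ARKO library stood at least 2.10-fold above the highest WT library. The means were 7.02 ± 2.28 and 35.2 ± 17.6 FPKM (SD, n = 3), 5.01-fold apart, with a log2 fold change of 2.09, a standard error of 0.42 and a limma adjusted p of 0.0491. Irf7 did not pass whichever single library was left out, with a limma adjusted p between 0.0629 and 0.151.

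STAT2 and IRF9 are the subunits that give the interferon complex its ISRE specificity. Stat2 was 15.7, 29.7 and 29.2 FPKM (WT) and 46.8, 31.4 and 56.3 FPKM (A2ARKO) (log2 fold change 0.84, limma adjusted p = 0.170). Irf9 was 8.06, 11.4 and 12.2 FPKM (WT) and 15.8, 13.1 and 19.1 FPKM (A2ARKO) (log2 fold change 0.56, limma adjusted p = 0.146). For both, the A2ARKO libraries lay just above the highest WT library, by 1.06-fold and 1.07-fold at the nearest. Irf1, a factor induced mainly by interferon gamma through a GAS element, was 4.30, 11.1 and 7.17 FPKM (WT) and 10.6, 9.84 and 11.1 FPKM (A2ARKO). Its groups overlapped, since WT replicate 2 stood as high as the A2ARKO libraries (limma adjusted p = 0.332).

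Of the 6 genes in the nucleic acid sensor role, 1 rose and 5 did not pass. In all 6 the A2ARKO libraries lay above the WT libraries, against 18.0% of all tested genes, though for Zbp1 by only 1.01-fold. The same held for 5 of the 6 GTPase genes and 5 of the 6 ISG15, ubiquitin and ADP-ribosylation genes. Ifih1, the gene of the double-stranded RNA sensor MDA5 (chromosome 2, 62595798 to 62646255, minus strand), was 1.78, 2.40 and 2.42 FPKM (WT) and 6.07, 5 and 10.2 FPKM (A2ARKO). The 3 WT libraries were close together and the lowest A2ARKO library was 2.07-fold above them. The means were 2.20 ± 0.364 and 7.09 ± 2.75 FPKM (SD, n = 3), with a log2 fold change of 1.29, a standard error of 0.24 and a limma adjusted p of 0.0428. It did not pass whichever library was left out (limma adjusted p from 0.0607 to 0.120).

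The related helicase genes were close to the threshold. Ddx58, which encodes the RNA sensor RIG-I, was 8.54, 11.4 and 14.4 FPKM (WT) and 25.9, 19.6 and 32.0 FPKM (A2ARKO) (log2 fold change 1.11, limma adjusted p = 0.0550). Dhx58, which encodes the regulator LGP2, was 3.46, 5.57 and 4.97 FPKM (WT) and 16.1, 9.10 and 22.1 FPKM (A2ARKO) (log2 fold change 1.5, limma adjusted p = 0.0549). In both genes A2ARKO replicate 2 was the lowest of its group and still above all WT libraries.

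Adar encodes the enzyme that edits adenosine to inosine in double-stranded RNA and limits its sensing. It was 9.61, 9.57 and 9.76 FPKM in WT, the tightest WT values of the role, and 17.6, 14.1 and 22.8 FPKM in A2ARKO (log2 fold change 0.82, limma adjusted p = 0.0504). Of its annotated exons, 1365 nt overlap Chrnb2 on the opposite strand, and the strand setting of the counting is not given. Eif2ak2, the gene of the RNA-activated kinase PKR, and Zbp1, a sensor of left-handed nucleic acid, differed by 0.96 and 1.48 on the log2 scale, without passing. Zbp1 was 0.33, 2.65 and 1.23 FPKM (WT) and 5.65, 2.68 and 8.62 FPKM (A2ARKO), so that A2ARKO replicate 2 lay level with WT replicate 2.

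OAS enzymes make oligoadenylates that switch on RNase L, which degrades RNA, and the OASL proteins are their relatives. Of its 5 genes, 4 were tested and 0 passed by limma. All 4 had an unadjusted limma p below 0.05 and a higher A2ARKO mean, against 14.3% of all tested genes. Oas1a was 0.57, 2.75 and 1.54 FPKM (WT) and 10.2, 4.2 and 13.7 FPKM (A2ARKO), a 5.79-fold difference of the means that was the highest of the set (log2 fold change 1.95, limma adjusted p = 0.0716). Its near-identical copy Oas1g was 0, 0.45 and 0.07 FPKM (WT) and 1.55, 0.37 and 2.03 FPKM (A2ARKO), and reads may be split between them. Oasl1 was 0.18, 0.97 and 0.59 FPKM (WT) and 2.64, 1.35 and 3.70 FPKM (A2ARKO), and Oas2 0.42, 1.02 and 0.74 FPKM (WT) and 2.41, 1.41 and 5.31 FPKM (A2ARKO), without overlap in either (log2 fold changes 1.15 and 1.13). Only the A2ARKO libraries of Oasl1 reached an FPKM of 1, so it was tested through the group where it is high. Oasl2 was more abundant, at 1.13, 7.28 and 5.96 FPKM (WT) and 17.3, 7.04 and 21.6 FPKM (A2ARKO), and overlapped because A2ARKO replicate 2 stood below WT replicate 2. Oas3 stayed between 0.03 and 1.23 FPKM and was not tested.

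Of the 17 direct antiviral effectors, 15 were tested and 0 passed by limma, with 10 at an unadjusted p below 0.05 and 10 with all A2ARKO libraries above WT. Their median log2 fold change was 1.08. Of all tested genes, 14.3% had such a limma p with a higher A2ARKO mean, and 18.0% had all A2ARKO libraries above WT. Ifi35, a protein that partners with NMI, was 12.2, 15.9 and 17.0 FPKM (WT) and 30.8, 23.1 and 37.2 FPKM (A2ARKO) (log2 fold change 0.95, limma adjusted p = 0.0549). Rtp4, which encodes a receptor transporter protein, was 7.85, 18.1 and 13.9 FPKM (WT) and 43.5, 27.8 and 58.3 FPKM (A2ARKO) (log2 fold change 1.64, limma adjusted p = 0.0598). Ifi44 was 1.65, 4.06 and 4.09 FPKM (WT) and 12.9, 8.19 and 26.7 FPKM (A2ARKO) (log2 fold change 1.90, limma adjusted p = 0.0701). With Irf7 and Ifih1 it was 1 of 3 members whose lowest A2ARKO library was at least 2 times the highest WT library (7.32% of tested members against 1.29% of all tested genes).

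The 3 Ifit genes of the set lie in 1 cluster on chromosome 19 (34550694 to 34650009) and encode proteins that bind viral RNA. Ifit1 was 10.8, 21.2 and 18.7 FPKM (WT) and 41.1, 33.5 and 87.1 FPKM (A2ARKO) (log2 fold change 1.55, limma adjusted p = 0.0872). Ifit3 was 10.3, 12.9 and 6.81 FPKM (WT) and 21.5, 14.3 and 55.6 FPKM (A2ARKO), most of the difference lying in A2ARKO replicate 3 (log2 fold change 1.33, limma adjusted p = 0.172), and its near copy Ifit3b had a log2 fold change of 1.05. Ifit2, at the other end of the cluster from Ifit1, was 8.48, 6.38 and 5.72 FPKM (WT) and 6.03, 6.77 and 8.22 FPKM (A2ARKO), at a log2 fold change of 0.03 with a standard error of 0.17. Ifit2 has 2 promoter windows, with a GAS match and no ISRE match, unlike the 2 stretches printed for its neighbours. The 16 tested genes without an ISRE match ranged from 0.03 to 2.09 in log2 fold change. A link between motif and fold change was not tested.

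The membrane proteins of the set were its most abundant members. Ifitm3, which blocks virus entry by fusion, was 292.9, 601.2 and 541.4 FPKM (WT) and 1146, 821.2 and 1152 FPKM (A2ARKO) (log2 fold change 1.17, limma adjusted p = 0.105). Bst2, encoding tetherin, which holds budding virus at the cell surface, was 78.0, 126.7 and 119.0 FPKM (WT) and 324.3, 160.0 and 398.3 FPKM (A2ARKO) (log2 fold change 1.37, limma adjusted p = 0.0948). Neither overlapped between the groups. The adjacent genes Ifi27 and Ifi27l2a on chromosome 12 (103434211 to 103443680) differed from each other: Ifi27 averaged 112 FPKM in both genotypes (log2 fold change -0.01, standard error 0.18), while Ifi27l2a was 19.1, 19.1 and 21.7 FPKM (WT) and 74.9, 19.1 and 72.9 FPKM (A2ARKO). A2ARKO replicate 2 therefore matched WT for Ifi27l2a, and without that library the gene passed (limma adjusted p = 0.0300).

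Samhd1, which depletes the nucleotides needed for reverse transcription, was 20.4, 12.4 and 14.1 FPKM (WT) and 21.98, 21.4 and 24.7 FPKM (A2ARKO) (log2 fold change 0.54, limma adjusted p = 0.146). Isg20, an exonuclease, was highest among WT in replicate 1 (12.9, 4.63 and 3.41 FPKM) and overlapped with A2ARKO (6.20, 9.41 and 14.6 FPKM). Xaf1 and Mx2 had log2 fold changes of 1.08 and 1.07 without overlap, and Cmpk2 was 0.43 with overlap. Rsad2, which encodes viperin and lies beside Cmpk2, stayed between 0.19 and 2.88 FPKM, and Mx1, which is defective in C57BL/6 mice, between 0.08 and 1.10 FPKM. Both were highest in A2ARKO replicate 3 and neither was tested.

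Isg15, the ubiquitin-like modifier of the interferon response, and Usp18, the protease that removes it and restrains the receptor, had the highest fold changes among the 6 ISG15, ubiquitin and ADP-ribosylation genes. All 6 had a log2 fold change above 0, 0 passed by limma and 5 had an unadjusted p below 0.05. Of all tested genes, 50.4% had a fold change above 0 and 14.3% had such a limma p with a higher A2ARKO mean. Isg15 was 24.2, 54.0 and 57.2 FPKM (WT) and 176.5, 92.3 and 288.3 FPKM (A2ARKO), 4.12-fold higher in the mean (log2 fold change 1.97, standard error 0.50, limma adjusted p = 0.0810). Usp18 was 3.56, 6.59 and 6.89 FPKM (WT) and 21.3, 12.4 and 32.2 FPKM (A2ARKO) (log2 fold change 1.73, limma adjusted p = 0.0571). For both, A2ARKO replicate 2 was over 1.5 times the highest WT library. A gap of 1.5-fold or more was seen in 13 of the 41 tested members (31.7%), against 2.99% of all tested genes.

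The ADP-ribosyltransferase genes Parp9 and Parp14 and the ubiquitin ligase gene Dtx3l lie together on chromosome 16 (35832874 to 35972605). Dtx3l and Parp9, whose products act as a pair, are transcribed away from each other with 458 nt of overlapping annotated exon. Parp9 was 4.86, 10.6 and 10.1 FPKM (WT) and 17.2, 13.6 and 24.4 FPKM (A2ARKO) (log2 fold change 1.05, limma adjusted p = 0.120), and Dtx3l was 2.49, 5.97 and 6.51 FPKM (WT) and 8.89, 6.65 and 12.5 FPKM (A2ARKO) (log2 fold change 0.83). Parp14 overlapped by 1 library pair, A2ARKO replicate 2 at 4.40 and WT replicate 2 at 4.51 FPKM. Trim25, the ubiquitin ligase that acts on RIG-I, was 9.54, 15.0 and 12.8 FPKM (WT) and 19.0, 15.6 and 23.8 FPKM (A2ARKO) (log2 fold change 0.61, limma adjusted p = 0.144).

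The 6 interferon-inducible GTPases, which act against intracellular microbes, had a median log2 fold change of 1.25, and 0 passed. All 6 had an unadjusted limma p below 0.05 and a higher A2ARKO mean, against 14.3% of all tested genes. Irgm1, which regulates the other immunity-related GTPases, was 5.72, 8.21 and 8.07 FPKM (WT) and 16.1, 14.0 and 26.4 FPKM (A2ARKO) (log2 fold change 1.22, limma adjusted p = 0.0522). The guanylate-binding protein genes Gbp2, Gbp3 and Gbp7 lie together on chromosome 3 (142530342 to 142638008). Gbp2 had the highest log2 fold change of the set, 2.18 with a standard error of 0.60, at 2.54, 16.6 and 11.6 FPKM (WT) and 38.6, 32.1 and 54.8 FPKM (A2ARKO) (limma adjusted p = 0.0937). Gbp3 was 2.72, 8.10 and 7.67 FPKM (WT) and 27.6, 16.1 and 43.9 FPKM (A2ARKO) (log2 fold change 2.07, limma adjusted p = 0.0629). WT replicate 1 was the lowest library for both, and without it Gbp2 passed with a smaller difference, 1.49 on the log2 scale (limma adjusted p = 0.0373). Gbp7 and Igtp, which share 637 and 162 nt of annotated exon with Gm43802 and Irgm2, did not overlap between groups and had log2 fold changes of 1.06 and 1.11, while Ifi47, at 0.45, 3.06 and 1.10 FPKM (WT) and 4.32, 2.86 and 7.52 FPKM (A2ARKO), overlapped through A2ARKO replicate 2.

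**Figure D4:**
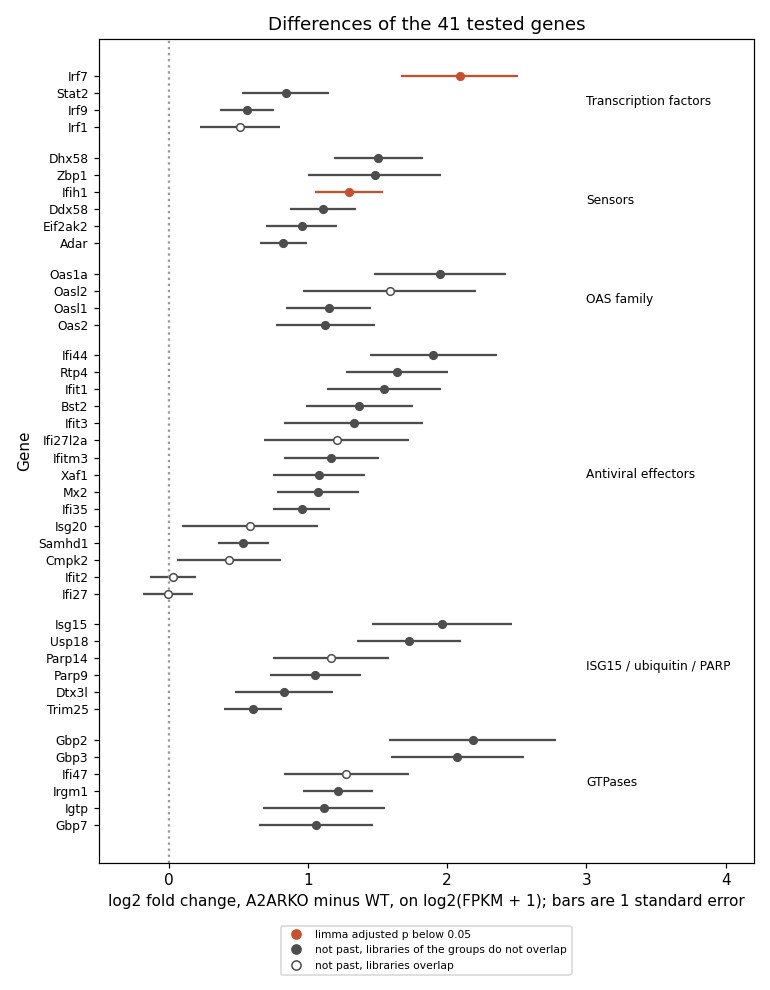
log2 fold change (A2ARKO minus WT on log2(FPKM + 1)) of the 41 tested genes by role, with bars of 1 standard error; red marks the genes past a limma adjusted p of 0.05, filled grey those not past with no overlap of libraries, and open symbols those with overlap. Irf7 and Ifih1 are the 2 red genes, and Ifit2 and Ifi27 lie at 0.03 and -0.01.

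The 44 genes lie on 14 chromosomes, and 8 groups of neighbours no more than 200 kb apart held 20 of them. Neighbours were not alike in every group: Ifit2 differed from Ifit1 and Ifit3, and Ifi27 from Ifi27l2a, in the values given above. Stat2 is the 1 member on chromosome 10, where Adora2a lies, at a distance of 52.9 Mb.

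The signalling chain around the set and other interferon-responsive genes came to 98 further genes, of which 69 were tested. Of the 69, 9 rose (5 of them in the list of other interferon-responsive genes), 0 fell and 60 did not pass. Of all tested genes, 3.31% were called higher and 1.77% lower. The number that rose was 0 by limma without A2ARKO replicate 1 or without A2ARKO replicate 3, and it was 1 without A2ARKO replicate 2, 4 without WT replicate 2 and 5 without WT replicate 3. The interferon genes themselves gave almost nothing: of 12 type I, II and III ligand genes, including Ifnb1, Ifna4, Ifng and Ifnl2, 11 were listed at 0 in all 6 libraries and Ifnab was listed at 0.05 FPKM in WT replicate 3 alone.

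Among receptors and signal transduction genes, 2 of 10 tested rose and 8 did not pass. Ifngr1, the ligand-binding chain of the interferon gamma receptor, was 22.6, 20.03 and 19.1 FPKM (WT) and 37.9, 31.7 and 33.4 FPKM (A2ARKO) (log2 fold change 0.71, limma adjusted p = 0.0261). Ifnar2, a chain of the type I receptor, was 11.3, 15.2 and 10.9 FPKM (WT) and 22.7, 19.6 and 24.2 FPKM (A2ARKO) (log2 fold change 0.79, limma adjusted p = 0.0429). Their partner chains Ifnar1 and Ifngr2 had log2 fold changes of 0.11 and 0.17 and overlapped. The kinase genes Jak1, Jak2 and Tyk2 had log2 fold changes of 0.49, 0.34 and -0.20. Ifngr1 did not pass in 4 of the 6 fits with 1 library left out and Ifnar2 in 5, at limma adjusted p of up to 0.115 and 0.168.

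None of the 6 tested inhibitors passed by limma (0, with 3 at an unadjusted p below 0.05). All 3 had a higher A2ARKO mean, which together with such a limma p held for 14.3% of all tested genes. The phosphatase genes Ptpn2 and Ptpn11, which act on JAK and STAT proteins, had log2 fold changes of 0.76 and 0.31 (limma adjusted p of 0.0810 and 0.103). Socs1, a feedback inhibitor of interferon signalling, was 4.41, 6.86 and 5.23 FPKM (WT) and 6.00, 3.53 and 4.58 FPKM (A2ARKO), while Socs3, which responds chiefly to interleukin 6 type cytokines, was 7.52, 31.2 and 15.6 FPKM (WT) and 40.3, 35.1 and 39.3 FPKM (A2ARKO) (log2 fold change 1.24, limma adjusted p = 0.165). Trex1 was listed at 0 in all libraries, and all 1147 nt of its annotated exons lie within Atrip.

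Of the genes that lead to interferon production, 2 of 14 tested rose and 12 did not pass. Ifi204, a DNA sensor of the HIN200 family that is itself interferon-induced, was 4.16, 9.55 and 7.47 FPKM (WT) and 27.8, 16.5 and 29.5 FPKM (A2ARKO) (log2 fold change 1.69, limma adjusted p = 0.0457). Traf3, a signalling adaptor, rose by 0.43 on the log2 scale (limma adjusted p = 0.0457). Ikbke, which encodes a kinase related to that of Tbk1, was 1.61, 2.83 and 2.99 FPKM (WT) and 5.05, 4.85 and 5.17 FPKM (A2ARKO), without overlap (log2 fold change 0.82, limma adjusted p = 0.0551). The adaptor and kinase genes Mavs, Ticam1 and Tbk1 and the factor gene Irf3 had log2 fold changes of 0.13, 0.13, 0.23 and 0.01, and Tmem173, encoding STING, had 0.52 with overlap. Tlr3, the endosomal receptor of double-stranded RNA, was 1.83, 2.79 and 3.67 FPKM (WT) and 4.47, 4.32 and 7.32 FPKM (A2ARKO), without overlap (log2 fold change 0.76, limma adjusted p = 0.134). The other endosomal receptor genes of the list, Tlr7 and Tlr9, were highest in WT replicate 2 (3.18 and 0.39 FPKM), the library with the highest myeloid markers, and were not tested. Ifi204 did not pass in 5 of the 6 fits with 1 library left out and Traf3 in all 6, at limma adjusted p of up to 0.169 and 0.191.

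A further list of 51 interferon-responsive genes outside the set had a median log2 fold change of 1.07 over 40 tested genes, beside 1.15 for the set and 0.002 for all tested genes. Like the set, this list was chosen with earlier results of these data known, so it is a description and not independent support. Of the 40, 5 rose and 35 did not pass, beside 3.31% of all tested genes called higher. An unadjusted limma p below 0.05 with a higher A2ARKO mean was found for 28 of the 40, against 14.3% of all tested genes. Gbp5, Gbp6 and Ddx60, which are among the 28, reached an FPKM of 1 in the A2ARKO libraries alone. The apolipoprotein L genes Apol9a and Apol9b, near copies of each other, rose at log2 fold changes of 2.16 and 2.29 (limma adjusted p of 0.0244 and 0.0312). Apol9a was 4.81, 1.91 and 3.09 FPKM (WT) and 16.9, 12.5 and 24.3 FPKM (A2ARKO). Lgals3bp, a secreted glycoprotein, was 144.5, 130.0 and 145.7 FPKM (WT) and 469.8, 287.0 and 555.0 FPKM (A2ARKO) (log2 fold change 1.58, limma adjusted p = 0.0315). Pml, the organizer of nuclear bodies, and the helicase gene Helz2 rose at 1.23 and 1.33 (limma adjusted p of 0.0291 and 0.0338). Each of these 5 genes lost the call in 4 or 5 of the 6 fits with 1 library left out, at limma adjusted p of up to 0.119. The chemokine gene Cxcl10, a common readout of interferon, was 0.57, 5.12 and 0.21 FPKM (WT) and 3.39, 4.35 and 13.9 FPKM (A2ARKO) and overlapped through WT replicate 2.

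**Figure D5:**
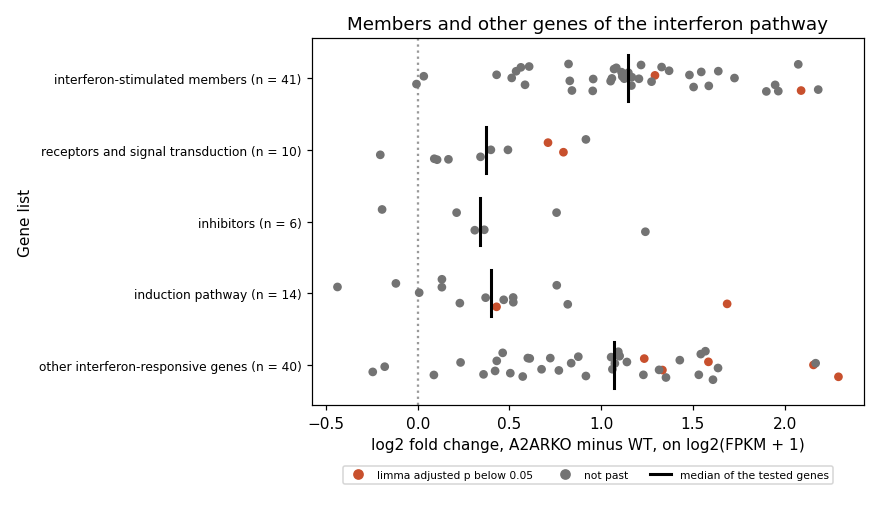
log2 fold change (A2ARKO minus WT on log2(FPKM + 1)) of tested genes in the set and in 4 lists of the interferon pathway; each point is 1 gene, red past a limma adjusted p of 0.05, and black bars are medians. The medians are 1.15 for the set, 0.37 for receptors and signal transduction, 0.34 for inhibitors, 0.40 for the induction pathway and 1.07 for other interferon-responsive genes (1 gene is in 2 of the lists).

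The median log2 fold change over the 41 tested members lay between 0.90 (without A2ARKO replicate 3) and 1.39 (without A2ARKO replicate 2) with each library left out in turn. It was 0.94 without WT replicate 1, the library with the highest chondrocyte markers, and 1.30 without WT replicate 2, the library with the highest myeloid markers. Without WT replicate 1, 2 or 3 the A2ARKO libraries lay above the WT libraries in 33, 37 and 32 members, against 26.2%, 23.5% and 24.5% of all tested genes. Without A2ARKO replicate 1, 2 or 3 they did so in 32, 36 and 32 members, against 22.4%, 19.8% and 20.6%. Leaving out a library can only keep or raise this count, which was 32 with all libraries, so these counts do not measure stability.

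Which members passed changed with the library left out. Without WT replicate 1 these were Gbp2 and Samhd1 (4.64% of all tested genes were called higher), and without WT replicate 3 Ddx58 (4.9%). Without A2ARKO replicate 2 it was Ifi27l2a (0.336%). By limma 0 members passed without WT replicate 2 (1.74%), A2ARKO replicate 1 (0.724%) or A2ARKO replicate 3 (0.466%), where 34, 22 and 22 members had an unadjusted p below 0.05. Other settings called Adar beside Irf7 and Ifih1 (pseudocount 0.1; 3.06% of all genes), Adar, Irf7 and Irgm1 (mean FPKM of 5 or more; 3.72%), or Ifih1 alone (quantile normalization, 2.6%, and no intensity trend, 3.23%). By limma 0 members passed without a filter (0.541%), with libraries rescaled to equal sums (1.54%) or with array weights (7.05%), where 31, 28 and 3 members had an unadjusted p below 0.05, and 0 passed with replicate number as a block (0.00862%), where 31 had.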

How the data were processed

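RNA sequencing on an Illumina HiSeq instrument, per the labels' protocols, was analysed in 6 libraries, 3 WT and 3 A2ARKO, each from 1 litter. The authors deposited FPKM to 2 decimals for 47480 genes. The submitters' processing notes name HTSeq and the build mm10; the aligner, annotation, gene lengths and strand handling: not given in the sources used here. The table does not record the counting error behind its FPKM, and a few abundant transcripts can lower the others of a library.

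Genes reaching an FPKM of 1 in 3 or more libraries (11595) were tested with limma 3.58.1 in R 4.3.3 (lmFit, eBayes with intensity trend, two-sided) on log2(FPKM + 1), which understates changes of low genes. No replicate block was used. Benjamini-Hochberg adjustment ran over the 11595 genes, and 384 were called higher and 205 lower at an adjusted p below 0.05, against 178 and 170 once libraries were rescaled to equal sums. The fit was also run on simulated data in which every gene had the median spread of all tested genes. It recovered 68% of changes of 0.5 and 100% of changes of 1 on the log2 scale. The members had a wider spread, so this recovery does not carry over to them.

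Depth came from annotated genes of at most 150 nt (GENCODE M21 on GRCm38, the assembly of mm10): FPKM times length took whole steps, within 0.1 read, for 99.0% or more of values up to 10 reads. Reads per gene are approximate. Summed over genes, they exceeded the estimated depth in every library. The sums were 53.5 M against 52.6 M in WT replicate 3 and 59.2 M against 41.6 M in WT replicate 1. Reads per gene may therefore be too high, and not equally so in each library. Promoters came from RefSeq on GRCm38.p6. The members and lists were chosen with earlier results of these data known, so they are described by counts and medians. Genes named by rule are the called genes, up to 4 tested members per role with the smallest adjusted p, the untested members, and per pathway list the called genes or the 2 with the smallest p; others were named after their values were seen. Alternatives were a pseudocount of 0.1, 2 filters, 2 scalings, no trend, array weights, a replicate block and each library left out. The values of 1 gene are not reported here.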

Additional observations from a re-analysis of the deposited data

How the results depend on the processing

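Calls of single members depended on the settings. The number of members called higher, 2 with all libraries, was 3 with a pseudocount of 0.1, 3 with a mean FPKM of 5 or more, 1 after quantile normalization, 1 without the intensity trend, and 0 by limma without a filter, with libraries rescaled to equal sums or with array weights (31, 28 and 3 members at an unadjusted p below 0.05). It ranged from 0 to 2 with each library left out. The array weights stopped before they converged. For the 98 other pathway genes, 9 called higher became 0 without a filter and 4 with rescaling, and ranged from 0 to 8 with each library left out. Adora2a stayed at -2.245 without a filter (limma adjusted p = 0.0533) and between -2.60 and -1.99 with each library left out, where it passed in 2 of 6 fits (limma adjusted p from 0.00999 to 0.0955). The causes were not tested. Same-numbered libraries did not deviate together (correlations -0.52, -0.33 and -0.39). With a replicate block 0 members (31 at an unadjusted limma p below 0.05) and 0 pathway genes passed, and Adora2a, at -2.245, had an adjusted p of 0.121. Of 486 values of single named genes, 387 kept direction and call, 93 lost the call, 6 gained it and 0 reversed. Only the 2 members and 9 pathway genes called with all libraries had a call to lose, and all 93 losses fell among them. Most named genes had no call in the main fit, so the 387 do not measure how stable the calls were. The longer ISRE form was present in 14 genes, the shorter in 17. Depth limits the lowest genes, down to about 11 reads for Oas3.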
